A study of Drosophila melanogaster with 12 samples.

Results

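The receptors for dopamine, serotonin and octopamine were followed in heads of Oregon-R (ORE-R) fruit flies (Drosophila melanogaster), a laboratory wild-type strain, after a week alone or in company. The 10 genes were taken by symbol from the deposited count table: the 4 dopamine receptors Dop1R1, Dop1R2, Dop2R and DopEcR, the 5 serotonin receptors 5-HT1A, 5-HT1B, 5-HT2A, 5-HT2B and 5-HT7, and the octopamine receptor Oamb. They are 10 of 17856 rows with a gene identifier, and all 10 passed the filter on low counts that left 10238 features for testing. The 4 groups had 3 libraries each and were isolated females, group-housed females, isolated males and group-housed males. All flies shared the same genotype and spent 3 to 5 days with both sexes after eclosion. They were then housed for 7 days, either as 1 fly alone or as 25 flies of 1 sex together, and were frozen within a day of the end of that week. Each library was made from polyA RNA of 200 whole heads, and the protocols say nothing of whether the pools came from separate cultures, so that p-values rest on the scatter among libraries, and that scatter may be technical in part.

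All 10 encode G protein-coupled receptors with which neurons and other cells read monoamines released by small groups of modulatory neurons. Dop1R1 raises cyclic AMP and is required in the mushroom body for learning, Dop1R2 acts in forgetting, Dop2R is the inhibitory dopamine receptor, and DopEcR responds to both dopamine and ecdysteroids. Among the serotonin receptors, 5-HT1A and 5-HT1B lower cyclic AMP, 5-HT2A and 5-HT2B signal through calcium, and 5-HT7 raises cyclic AMP. Oamb, named for its place in the mushroom bodies, responds to octopamine, the insect counterpart of noradrenaline, with calcium.

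Between 2584050 and 17122099 reads were counted over features per library. Isolated female replicates 1 and 2 had the fewest reads, 2584050 and 3224485, and stood apart on the first principal component of all tested features at 60.1 and 46.1, against at most 22.0 in the other libraries. The 10 neuron markers, 11 photoreceptor markers and 8 glial markers listed for whole heads were detected in every library. Summed fat body markers took 43226 to 54680 CPM (counts scaled to a common library total) in isolated females and 18626 to 25586 in group-housed females, and 8859 to 11539 in isolated males and 8297 to 10868 in group-housed males. Markers of the male reproductive tract, which heads should lack, summed to 0.31 to 1.04 CPM in isolated females, 0.934 to 1.99 in group-housed females, 1.63 to 3.16 in isolated males and 11.0 to 192 in group-housed males. Replicate 0 of each group belonged to batch 1 and replicates 1 and 2 to batch 2, and batch was a term of the fit.

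All 10 receptors were detected in every library, and DopEcR stood far above the others. Read counts ran from 84 for 5-HT2B in isolated female replicate 1 to 7298 for DopEcR in group-housed female replicate 0. To compare genes, CPM (scaled here and below by TMM, edgeR's trimmed mean of M-values) were divided by the kilobases of exon in the BDGP6.54 annotation. On that scale DopEcR averaged 101 ± 16.4 CPM per kb (SD, n = 12) and ranked first in 12 of 12 libraries. Among tested genes with a known length, DopEcR lay at percentile 93.4, and the other 9 receptors lay between percentiles 32.9 and 60.4.

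The next levels per kb followed in a gentle slope in which neighbours were often not separable. 5-HT1A averaged 22.2 ± 3.51, Dop1R2 21.6 ± 2.91 and 5-HT2A 19.9 ± 3.04 CPM per kb (SD, n = 12), and 5-HT1A exceeded Dop1R2 in only 8 of 12 libraries. Dop1R1 and Oamb followed at 16.6 ± 3.64 and 16.4 ± 2.49 CPM per kb, each above the other in 6 of 12 libraries. 5-HT1B and 5-HT7 averaged 13.9 ± 2.34 and 13.2 ± 1.99 CPM per kb, with 5-HT1B above in 7 of 12 libraries. 5-HT2B and Dop2R were lowest at 8.67 ± 1.22 and 8.58 ± 1.5 CPM per kb, and held the last 2 ranks in all 12 libraries. The steps that held in every library were those from DopEcR to 5-HT1A and from 5-HT7 to 5-HT2B. The place of Dop1R1 depends on its annotated exon length of 14565 bases, which is more than that of any other receptor (4026 to 6530 bases).

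**Figure D1:**
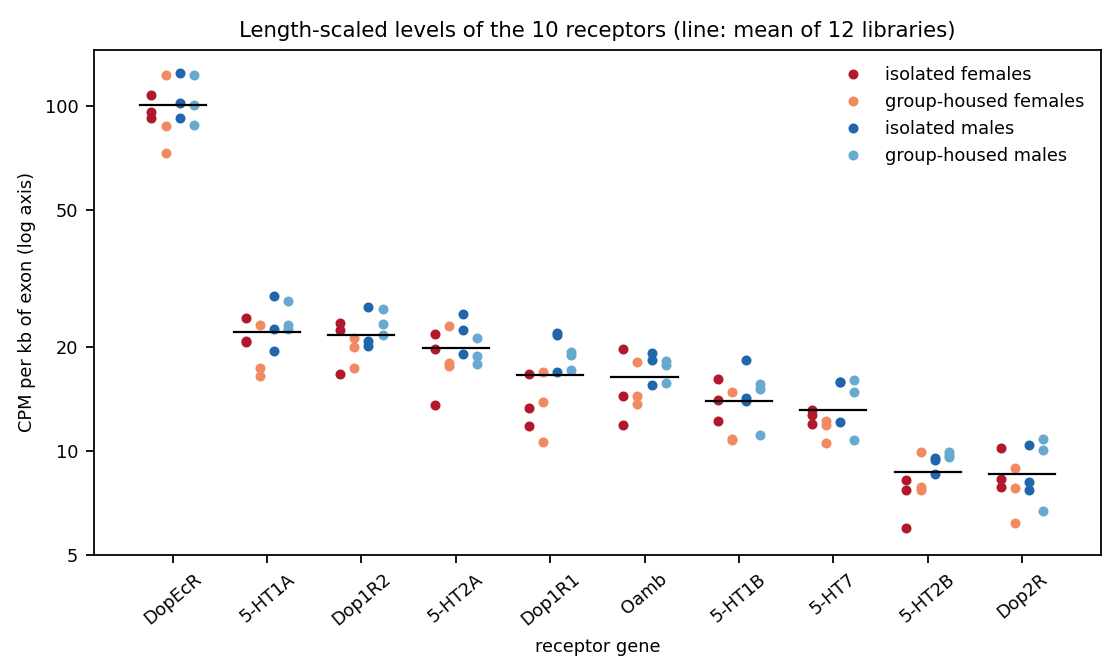
Level of each receptor in CPM per kb of exon on a log axis, with 1 point per library coloured by group and a line at the mean of 12 libraries. DopEcR averages 101 CPM per kb, and the other 9 receptors average between 8.58 and 22.2.

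The genes share no exon with a neighbour in the annotation. In BDGP6.54, whose identity with the build behind the counts is not known, Dop1R1 is a protein-coding gene of 5 annotated transcripts on the minus strand of arm 3R, between positions 14165379 and 14214810. DopEcR lies on 3L from 4367649 to 4380387 and Dop2R on X from 20004680 to 20062706, both on the minus strand. Dop1R2, 5-HT2A, 5-HT2B, 5-HT7 and Oamb lie on 3R, and 5-HT1A and 5-HT1B on 2R. No exon of the 10 overlaps an exon of another annotated gene on either strand, with 0 shared bases for each. The strand setting of the counts is not known.

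The central comparison asked whether a week alone changed the receptors in females. None of the 10 passed the test in either direction (edgeR quasi-likelihood test, Benjamini-Hochberg adjusted over 10238 features, threshold 0.05), where 3.48% of all features tested did, 3.26% higher and 0.215% lower. Of those calls 93.8% were higher, against 80.2% with libraries scaled by their totals alone. None of the 10 had an unadjusted p under 0.05 either, against 14.3% of all features. DESeq2 and limma-voom also called 0. The log2 fold changes of isolated over group-housed females ran from -0.19 for 5-HT2B to 0.23 for Dop2R, with a median of 0.08, beside -0.02 over all features tested. The sign of the members' median depends on the scaling: with library totals alone it was -0.12, where the median of all features moved to -0.23, and with libraries scaled to neuron markers it was -0.12 beside -0.25. It also rests on single libraries, at 0.03 when isolated female replicate 2 was left out and 0.11 when isolated female replicate 1 was. Leaving out group-housed female replicate 1 gave -0.0031, and leaving out group-housed female replicate 2 gave 0.21. An unadjusted p under 0.05 was reached by 5-HT2B with library totals alone, by 5-HT1A without group-housed female replicate 2 and by Dop2R without isolated female replicate 1.

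The 95% intervals of the 10 receptors in females had outermost bounds of 0.698-fold for 5-HT2B and 1.49-fold for Dop2R, just inside a 1.5-fold change in either direction, as were the intervals of 37% of all features. The 1.5-fold bound was chosen after seeing the data. That bound was not stable, since all 10 intervals lay inside it in 9 of 23 alternatives. With neuron marker scaling 2 of 10 did, with batch 2 alone 3 of 10 and with replicate 0 as the only library of isolated females 4 of 10. Library totals alone left 7 of 10 inside. With 1 female library left out 6 to 9 of 10 lay inside, and over all alternatives the bounds reached 0.5-fold and 1.85-fold.

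The receptor farthest from 0 in females, Dop2R, had overlapping groups. It stood at 54.2, 51.3 and 66.6 CPM in isolated females and at 40.4, 50.8 and 58.4 CPM in group-housed females. Isolated libraries exceeded group-housed ones in 7 of 9 pairs, and the log2 fold change came to 0.23 (SE 0.16, 95% interval -0.10 to 0.57, edgeR adjusted p = 0.556). 5-HT1B stood at 49.2, 65.2 and 56.6 CPM in isolated females and at 43.6, 43.2 and 59.8 CPM in group-housed females, with 0.22 as its log2 fold change (SE 0.16, edgeR adjusted p = 0.582). Its highest group-housed library lay among the isolated ones. 5-HT2B stood at 52.0, 37.8 and 48.9 CPM in isolated females and at 49.6, 48.7 and 62.7 CPM in group-housed females, with groups that overlap and with -0.19 as its log2 fold change (SE 0.15, edgeR adjusted p = 0.629). Its lowest value came from isolated female replicate 1, the shallowest library, with 84 reads.

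The remaining receptors lay between -0.08 and 0.21 in females. 5-HT1A averaged 110.0 ± 10.5 CPM in isolated and 95.5 ± 18.3 CPM in group-housed females (SD, n = 3 each), a log2 fold change of 0.21 with an interval from -0.13 to 0.55. DopEcR averaged 425 ± 34.9 CPM in isolated and 406 ± 112 CPM in group-housed females (SD, n = 3 each), a log2 fold change of 0.07 with an interval from -0.33 to 0.46. 5-HT7 averaged 56.5 ± 2.58 CPM in isolated and 51.7 ± 4.06 CPM in group-housed females (SD, n = 3 each), at 0.13. Dop1R2, 5-HT2A, Dop1R1 and Oamb stood at log2 fold changes of 0.09, -0.08, 0.01 and -0.0049. No receptor had separate groups in females, while 9.23% of all features were higher and 7.07% lower in all 9 pairs of libraries. With replicate 0 as the only library of isolated females, the one that did not stand apart, again none of the 10 passed, and the median log2 fold change was 0.06.

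In males isolation likewise gave no call. None of the 10 passed (edgeR adjusted p = 1 for each to 3 digits), where 0.0781% of all features did, and none had an unadjusted p under 0.05, against 2.66% of all features. DESeq2 and limma-voom called 0 as well. The log2 fold changes of isolated over group-housed males ran from -0.09 for 5-HT2B to 0.19 for 5-HT2A, with a median of 0.03, beside -0.0018 over all features tested. Without group-housed male replicate 1 that median was -0.03, without isolated male replicate 2 it was -0.05, and without isolated male replicate 1 it was 0.12. It was 0.08 without group-housed male replicate 2, 0.02 without group-housed male replicate 0 and 0.01 when isolated male replicate 0 was left out. All 10 intervals lay inside a 1.5-fold change, as did 51.2% of those of all features, with outermost bounds of 0.758-fold for 5-HT2B and 1.40-fold for Dop1R1. This held in 19 of 23 alternatives. Inside the bound were 2 of 10 with neuron marker scaling, 5 of 10 with batch 2 alone, 8 of 10 without isolated male replicate 1 and 9 of 10 when group-housed male replicate 1 was left out.

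5-HT2A had 134.7, 103 and 122 CPM in isolated males and 115, 102 and 96.9 CPM in group-housed males. Isolated males were higher in 8 of 9 pairs, and the log2 fold change came to 0.19 (SE 0.14, 95% interval -0.10 to 0.48, edgeR adjusted p = 1). 5-HT2B was the single receptor whose male groups were separate, at 59.8, 54.2 and 60.3 CPM in isolated males and 61.5, 61.0 and 62.6 CPM in group-housed males. The gap was small, at -0.09 in log2 units (SE 0.15, edgeR adjusted p = 1), and 2.62% of all features were likewise lower in all 9 pairs. Oamb averaged 97.8 ± 10.7 CPM in isolated and 95.5 ± 7.19 CPM in group-housed males (SD, n = 3 each), and Dop2R averaged 57.0 ± 9.46 CPM in isolated and 60.0 ± 14.4 CPM in group-housed males.

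**Figure D2:**
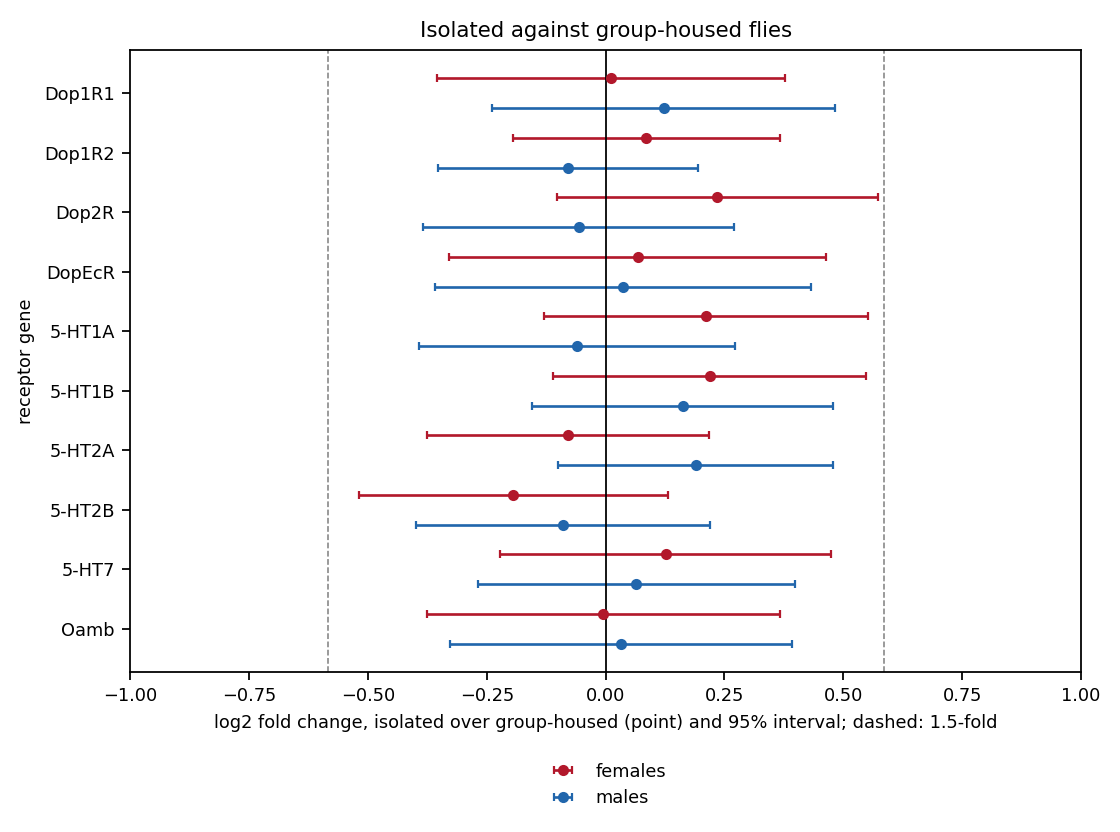
Log2 fold change of isolated over group-housed flies for each receptor, with females above males, and 95% intervals from the edgeR fit. Every interval includes 0, and in this fit all lie between the dashed lines at a 1.5-fold change, from 0.698-fold to 1.49-fold in females and from 0.758-fold to 1.40-fold in males. The place of the dashed lines was chosen after seeing the data.

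Whether females and males responded differently was a further contrast of that fit. None of the 10 passed, where 0.44% of all features did, and none had an unadjusted p under 0.05, against 7.1% of all features; DESeq2 and limma-voom called 0. The differences, female minus male response on the log2 scale, ran from -0.27 for 5-HT2A to 0.29 for Dop2R (edgeR adjusted p = 0.884 and 0.897). These intervals are wider, and 5 of 10 lay inside a 1.5-fold difference, with outermost bounds of 0.623-fold and 1.69-fold. Averaged over the sexes, again none of the 10 passed, where 2.2% of all features did, and none had an unadjusted p under 0.05, against 10.9%. There 5-HT1B had the smallest p, at 0.19 in log2 units (SE 0.11, edgeR adjusted p = 0.575), with isolated flies higher in 7 of 9 female and 5 of 9 male pairs.

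Marker lists of other cells are given beside the receptors, under TMM. In females 6 of 8 fat body genes were called higher, with a median log2 fold change of 1.56, as was 1 of 6 hemocyte genes (eater, a phagocytic receptor). None of the 10 neuron, 11 photoreceptor, 8 glial, 8 mushroom body, 8 muscle or 3 male reproductive tract genes tested was called in females, with medians of 0.13 for neurons, -0.05 for photoreceptors, 0.17 for glia, -0.01 for mushroom bodies, 0.13 for muscle and -1.30 for the male reproductive tract. With library totals alone 5 of 8 fat body genes and 0 of 6 hemocyte genes were called, and the neuron, glial and muscle medians turned negative, at -0.06, -0.03 and -0.08. Calls over all features in females fell as well with that scaling, from 356 to 167. In males 2 of 3 genes of the male reproductive tract were called lower (loopin-1 and S-Lap2), and none of the other marker lists held a call. All 13 listed genes of that tract summed to 1.63 to 3.16 CPM in isolated and 11.0 to 192 in group-housed males. At such levels the filter on low counts favours genes that are high in group-housed males, so these calls carry little weight. The part of the marker shifts in the receptors' values was not tested.

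Within batches the responses were not steady. In batch 1, with 1 library per group, the female difference in log2 CPM of Dop1R1 was 0.27 and in batch 2 it was -0.10. Oamb differed by -0.32 in batch 1 and by 0.13 in batch 2 in females, and by -0.24 and 0.17 in males. Over the receptors, 6 of 10 had the same sign in both batches in females and 7 of 10 in males. The share over all features was not taken, so whether the receptors differ from other genes in this was not tested. Between the batches, batch 2 over batch 1 stood at log2 fold changes of 0.37 for Dop2R, 0.30 for 5-HT1B and -0.31 for 5-HT2A (SE 0.12, 0.11 and 0.10; edgeR adjusted p = 0.0950, 0.152 and 0.103). None of the 10 passed the test of batch, where 3.93% of all features did, and 4 had an unadjusted p under 0.05, against 19.5% of all features.

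**Figure D3:**
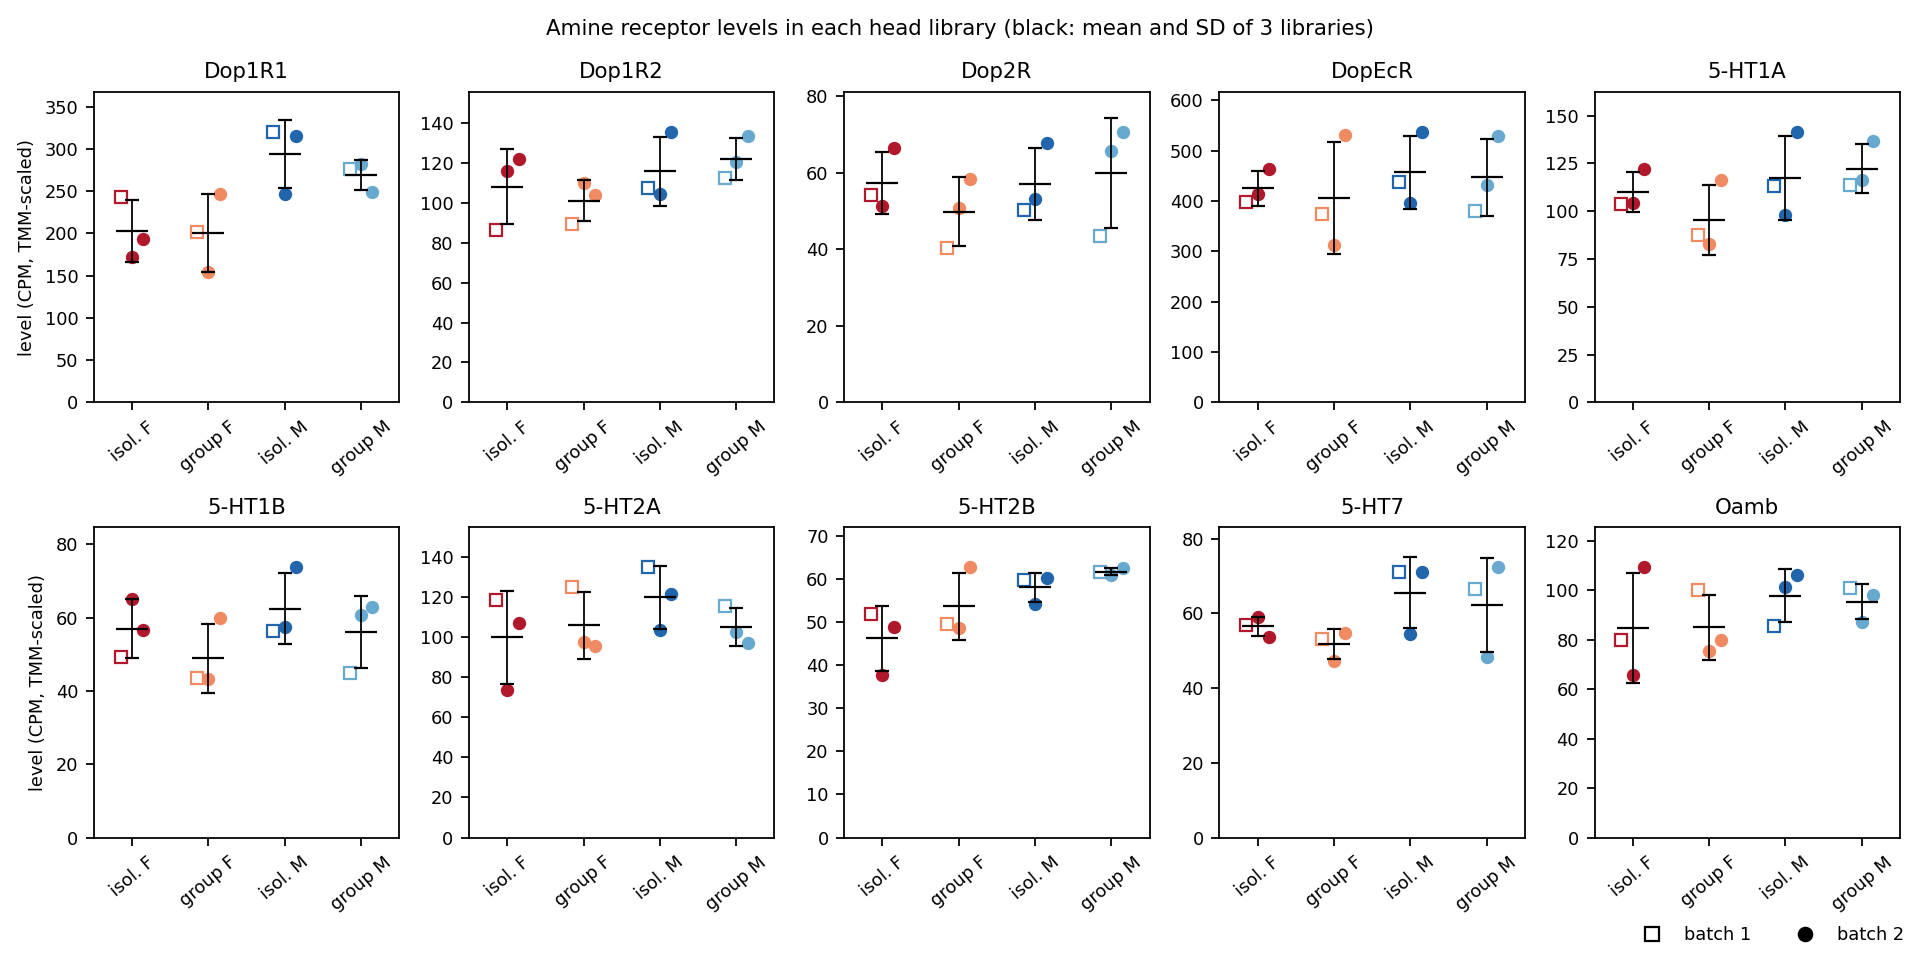
Level of each receptor in CPM in every library of isolated females (isol. F), group-housed females (group F), isolated males (isol. M) and group-housed males (group M), with mean and SD of 3 libraries; open squares are batch 1 and filled circles batch 2. For Dop1R1 all 6 female libraries, up to 246.6 CPM, lie below all 6 male libraries, from 247.2 CPM, whereas its housing groups overlap in each sex.

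Between females and males, Dop1R1 had separate groups. It stood at 243, 172 and 194 CPM in isolated females and at 319.8, 247 and 315 CPM in isolated males. In group-housed flies it stood at 202, 154 and 247 CPM in females and 277, 283 and 249 CPM in males. Females were thus lower in every pair of libraries under both housings, and over both housings their highest library, at 246.6 CPM, lay just under the lowest male one, at 247.2 CPM. Under isolation 2 receptors (Dop1R1 and 5-HT2B) were lower in females in all 9 pairs, as were 10.1% of all features, and under group housing 2 (Dop1R1 and Dop1R2), as were 6.62%. For Dop1R1 females lay below males in 36 of 36 pairs over both housings, as they did for 1.12% of all features. In bulk heads, fewer cells that express a gene and less RNA per cell cannot be told apart.

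Under isolation, females over males gave Dop1R1 a log2 fold change of -0.54 (SE 0.17, 95% interval -0.90 to -0.17, unadjusted p = 0.00677, edgeR adjusted p = 0.101). Under group housing it was -0.42 (SE 0.17, 95% interval -0.79 to -0.06, unadjusted p = 0.0245, edgeR adjusted p = 0.286). Neither passed, and none of the 10 receptors passed either comparison, where 4.24% of all features did under isolation and 2.73% under group housing. Of all calls under isolation 85.0% were higher in females, against 48.3% with library totals alone. DESeq2 called Dop1R1 under isolation (adjusted p = 0.0481) and 0 of 10 under group housing, and limma-voom called 0 in both. Of all features DESeq2 called 6.77% under isolation and 4.32% under group housing, and limma-voom 5.12% and 4.13%. At an unadjusted p under 0.05 stood 1 of 10 under isolation, against 16.6% of all features, and 3 of 10 under group housing (Dop1R1, Dop1R2 and 5-HT1A), against 12.5%. Without group-housed female replicate 2, Dop1R1 passed under isolation at -0.54 and under group housing at -0.65 (adjusted p = 0.0216 and 0.0203). Calls over all features rose as well without that library, to 6.04% under isolation and 4.61% under group housing.

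The average of both housings, a comparison added after the values of Dop1R1 were seen, passed for Dop1R1 and for no other receptor. Its log2 fold change of females over males was -0.48 (SE 0.12, 95% interval -0.74 to -0.22, edgeR adjusted p = 0.0213), a level of 0.717-fold with an interval from 0.60-fold to 0.857-fold. An unadjusted p under 0.05 was reached by 3 of 10 receptors (Dop1R1, 5-HT2B and 5-HT7), against 20.8% of all features. Of all features 7.82% passed after adjustment, and 2.46% passed as lower in females. Of those calls 68.5% were higher, against 44.2% with library totals alone. Within batch 1 the difference was -0.39 under isolation and -0.45 under group housing, and within batch 2 it was -0.61 and -0.44. The fit with batch 2 alone gave -0.51 (adjusted p = 0.118), where 372 of all features were called, against 801 with both batches. The call was lost when any of 6 libraries was left out, with adjusted p = 0.0606 without group-housed female replicate 0, 0.0833 and 0.0559 without isolated female replicate 1 or 2, 0.0532 and 0.0602 without isolated male replicate 0 or 2, and 0.06 without group-housed male replicate 1. The log2 fold change then stayed between -0.48 and -0.43. Calls over all features fell as well in those fits, to between 579 and 667. Dop1R1 kept its call without group-housed male replicate 0 or 2, where 656 and 613 features were called. With replicate 0 as the only library of isolated females the value was -0.37 (adjusted p = 0.35).

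The other 9 receptors had smaller differences, and the 95% intervals of 7 of them included 0. Averaged over housing, all 10 were negative under TMM, RLE scaling and library totals alone, and 8 of 10 with libraries scaled to neuron markers, where 5-HT2A and Dop2R stood at 0.0013 and 0.0095. Under TMM they ran from -0.48 for Dop1R1 to -0.11 for Dop2R with a median of -0.19, where 53.4% of all features were negative and their median was -0.02. 5-HT2B had 37.8, 49.3 and 62.7 CPM as the lowest, median and highest of 6 female libraries, and 54.2, 60.6 and 62.6 CPM in 6 male libraries. Females were lower in 30 of 36 pairs, and the averaged log2 fold change came to -0.26 (SE 0.11, edgeR adjusted p = 0.168). 5-HT7 had 47.1, 54.3 and 58.9 CPM in females and 48.2, 68.7 and 72.3 CPM in males, at -0.24 (SE 0.11, edgeR adjusted p = 0.24). 5-HT1A and Dop1R2 stood at -0.22 and -0.19 (edgeR adjusted p = 0.275 and 0.247). DopEcR and 5-HT2A stood at -0.12 and -0.13, and their female and male ranges overlapped broadly.

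**Figure D4:**
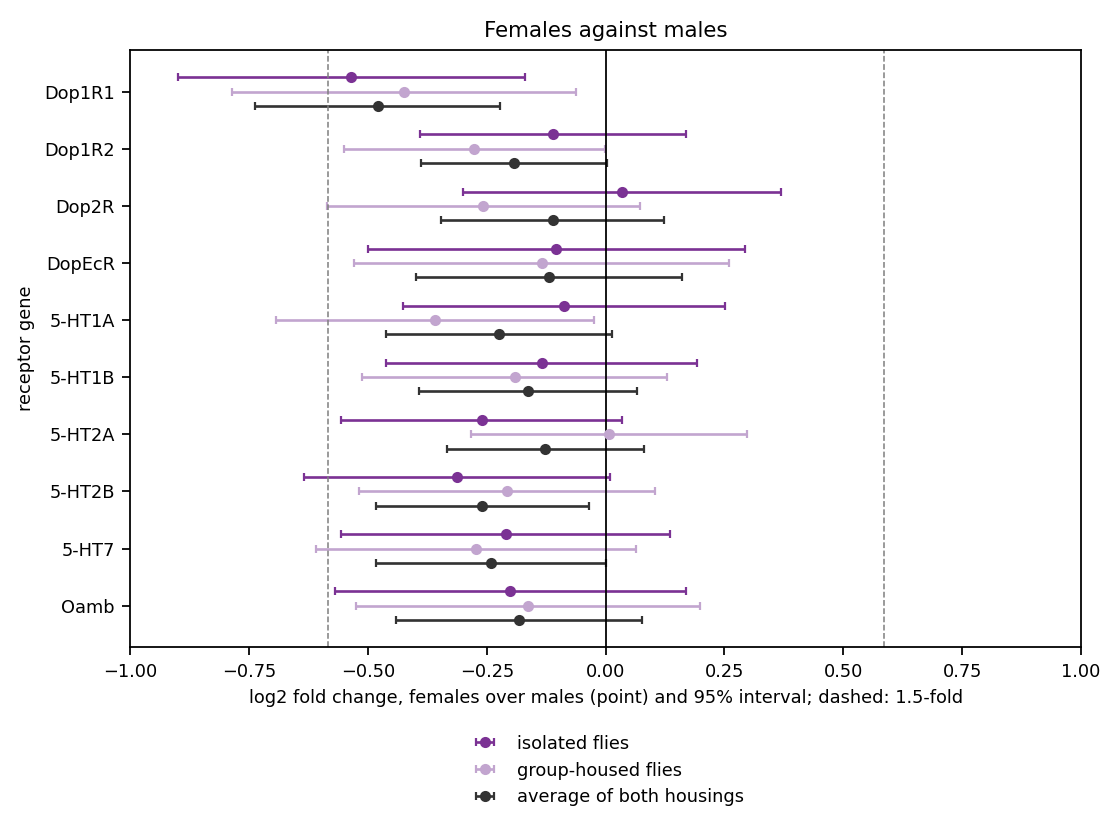
Log2 fold change of females over males for each receptor among isolated flies, among group-housed flies and on average of both housings, with 95% intervals. Dop1R1 lies at -0.54, -0.42 and -0.48 with all 3 intervals below 0, and the averages of the other 9 lie between -0.26 and -0.11.

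The marker lists were also compared between females and males. Averaged over housing and under TMM, the median log2 fold change of females over males was -0.05 for 10 neuron markers (7 negative), -0.20 for 8 mushroom body genes (7 negative), -0.11 for 8 glial markers (7 negative) and 2.92 for 8 fat body markers (7 of them called higher). The glial genes alrm, an astrocyte cell surface gene, and Gat, which encodes a GABA transporter, were called lower in females, at -0.61 and -0.48, a call that neither kept with libraries scaled to neuron markers (-0.48 and -0.36). Over all features 253 were called with that scaling, against 801 under TMM. Called higher in females were 4 of 8 muscle genes and 3 of 6 hemocyte genes, and called lower were the 3 tested genes of the male reproductive tract. The filter on low counts favours genes of that tract that are high in group-housed males, so the lower calls carry little weight. None of the 11 photoreceptor, 10 neuron or 8 mushroom body genes was called. Summed neuron markers took 8021 to 8323 CPM of library totals in isolated females and 8349 to 10209 in isolated males, and 6410 to 11088 in group-housed females and 8325 to 11169 in group-housed males. The part of these shifts in the lower Dop1R1 of females was not tested. With libraries scaled to the neuron markers in place of TMM, an alternative added after seeing the data, the averaged Dop1R1 difference was -0.39 (unadjusted p = 0.0171, adjusted p = 0.274) and the median of the 10 receptors -0.06, against 0.10 over all features. With library totals alone the median over all features was -0.10, that of the receptors -0.27, and Dop1R1 stood at -0.57 (adjusted p = 0.0013).

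Under TMM the 7 octopamine and tyramine receptors outside the 10 genes gave no call. These are the cyclic AMP-raising receptors Octbeta1R, Octbeta2R and Octbeta3R, the inhibitory Octalpha2R, Oct-TyrR, which binds both amines, and the tyramine receptors TyrR and TyrRII. None of the 7 passed in females, where their median log2 fold change under isolation was -0.09, or in males, where it was -0.05; by unadjusted p 0 of 7 were under 0.05 in either sex. Octbeta1R averaged 150.0 ± 31.3 CPM in isolated and 166 ± 47.7 CPM in group-housed females (SD, n = 3 each), at -0.14 (SE 0.20). Octbeta3R averaged 110.2 ± 11.4 CPM in isolated and 101 ± 16.5 CPM in group-housed females, at 0.14 (SE 0.16). TyrRII was scarce, at 5.43 ± 2.00 CPM in isolated and 8.11 ± 2.71 CPM in group-housed females, at -0.55 (SE 0.35, edgeR adjusted p = 0.528). Between the sexes, averaged over housing, all 7 were negative under TMM, RLE scaling, library totals alone and neuron marker scaling. Under TMM their median was -0.28 and none passed, whereas library totals alone called 2 of 7 lower. Over all features library totals alone called 7.88%, of which 44.2% were higher in females, against 7.82% and 68.5% under TMM. An unadjusted p under 0.05 was reached by 4 of 7 on that average, or 57.1%, against 20.8% of all features, by 3 of 7 under group housing, or 42.9%, against 12.5%, and by 0 of 7 under isolation, against 16.6%. Octbeta3R had the smallest p on the average, at -0.34 (SE 0.11, edgeR adjusted p = 0.0822).

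The signalling genes downstream of the receptors were read against the same background. Of 11 G protein subunits, 19 cyclic AMP pathway genes, 17 calcium and phospholipase C genes and 7 receptor kinases, arrestins and regulators of G protein signalling, none passed the test of isolation, where 3.48% of all features did in females and 0.0781% in males. In the cyclic AMP list 18 of 19 log2 fold changes were positive in females, with a median of 0.20 and 3 at an unadjusted p under 0.05, or 15.8%, close to the 14.3% of all features, beside 8 of 19 and a median of -0.01 in males. Over all features 47.6% were positive in females. The count in females moves with the scaling, with 11 of 19 positive for library totals alone and 12 of 19 for neuron marker scaling. The median over all features was then -0.23 and -0.25. Among the cyclic AMP genes, and chosen after their values were seen, the adenylyl cyclase gene rut stood at 0.24 (SE 0.17) and the protein kinase A catalytic subunit gene Pka-C1 at 0.38 (SE 0.22) in females, and at 0.01 and -0.12 in males. An antisense transcript, lncRNA:CR45522, overlaps 420 exon bases of rut, and the strand setting of the counts is not given. Genes that make and carry the amines formed a separate list. Of its 15 tested genes, Hn, which encodes the phenylalanine hydroxylase that supplies tyrosine, rose in isolated females by 0.85 (SE 0.15, edgeR adjusted p = 0.0032) and on average of the sexes by 0.54 (SE 0.11, edgeR adjusted p = 0.011), calls that held with library totals alone and were lost with neuron marker scaling (0.63 in females, adjusted p = 0.711). Calls over all features also fell with neuron marker scaling, from 356 to 28 in females and from 225 to 26 on average of the sexes. Tryptophan hydroxylase (Trh, FBgn0035187), the neuronal enzyme of serotonin synthesis, was listed under a symbol the table does not use and was looked up by its identifier. It stood at -0.0033 (SE 0.14) in isolated females and -0.11 (SE 0.13) in isolated males, and at -0.18 (SE 0.10, edgeR adjusted p = 0.319) between the sexes on average of both housings. The transporter genes DAT and SerT, also chosen after their values were seen, stood at 0.15 and -0.10 (SE 0.13 and 0.17) in isolated females and were not called. CrebA was listed with the cyclic AMP genes but is a bZIP transcription factor of secretory cells. Between the sexes, CrebA was higher in isolated females than in isolated males by 0.91 (SE 0.23, edgeR adjusted p = 0.0371), and by 0.68 on average of both housings (SE 0.16, edgeR adjusted p = 0.016). On that average speck, which encodes the enzyme that acetylates monoamines, was lower in females, at -0.53 in log2 units (SE 0.12, edgeR adjusted p = 0.0141), which was lost with neuron marker scaling (-0.38, adjusted p = 0.671), and 95 of its exon bases overlap antisense genes. With neuron marker scaling 253 of all features were called on that average, against 801 under TMM. CrebA was called on that average under all 4 scalings, and under isolation by TMM and RLE scaling but not by library totals alone or neuron marker scaling (adjusted p = 0.065 and 0.212). Under TMM no G protein subunit, calcium and phospholipase C gene, or receptor kinase, arrestin or regulator of G protein signalling was called in any of the 3 comparisons of the sexes.

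The receptors also varied together from library to library. Over the 12 libraries, after subtracting batch means from log2 CPM, all 45 pairs of receptors had a positive Pearson r, with a median of 0.523 and a range from 0.0986 for 5-HT1B and Oamb to 0.883 for DopEcR and 5-HT1A. These points share library, sex, housing and depth, and the correlations are descriptions. Pairs of other genes were not taken for comparison, so whether the receptors differ from other genes in this was not tested. Among 7455 other genes whose log2 CPM averaged 3 or more, the pattern most like that of Dop1R1 was GlcAT-S (r = 0.956), and that most like DopEcR was smog (r = 0.964). For 5-HT7 it was TTLL5 (r = 0.984), for 5-HT1A CG15894 (r = 0.976), for 5-HT2B cos (r = 0.968), for 5-HT1B Ca-beta (r = 0.942), for 5-HT2A DIP-eta (r = 0.924) and for Dop1R2 Klp64D (r = 0.922). Dop2R and Oamb had no gene above 0.9, with Sik3 (r = 0.895) and DIP-theta (r = 0.895) as their nearest. DopEcR had 81 genes above 0.9 and Dop1R1 had 31, so that a single nearest gene is not set apart from many others.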

How the data were processed

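PolyA RNA of pooled heads was sequenced in 12 libraries. The authors deposited whole-number read counts per feature, per the file headers, with HTSeq 2.0.5 and STAR 2.7.10b among the tools in the submitters' processing notes, beside edgeR 4.4.1, R 4.4.0 and Picard 2.27.5. What each tool did, the strand setting, the annotation and the genome build are not given. The closing lines that name no gene held 10.2% to 13.2% of reads and were left out. Of the columns, 1 that is tied to no sample was not used, and that of isolated male replicate 1 is marked as merged without saying what was merged.

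Counts were tested in R 4.3.3 with edgeR 4.0.16 (TMM, filterByExpr with a minimum count of 10 and a minimum total of 15, robust glmQLFit, glmQLFTest) with 4 group means and batch as terms, which left 7 residual degrees of freedom. P-values were adjusted by Benjamini-Hochberg over 10238 features, with a threshold of 0.05. CPM are scaled by TMM unless library totals are named, and intervals are 95% intervals of the fit. The 1.5-fold bound, the average of the sexes over housing, the test of batch and the scaling to neuron markers were chosen after seeing the data. The members and lists were chosen with earlier results of these data known. Named from each list were up to 4 genes that passed, by smallest p, and for each member the gene with the highest Pearson r over log2 CPM (prior count 2, batch means subtracted). The genes rut, Pka-C1, DAT and SerT were named outside that rule, after their values were seen.

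Alternatives were RLE scaling, library totals alone, other filters, DESeq2 1.42.0, limma-voom (limma 3.58.1), other batch terms and libraries left out. Replicates differed beyond sampling noise, with a chi-square per degree of freedom of 4.48 to 65.7. Of 163 listed symbols 159 matched the table, itpr, AANAT1 and ebony being other spellings of listed genes and Trhn being looked up by identifier outside its list. Exon lengths and positions came from BDGP6.54, in which 17816 of 17856 gene identifiers were found.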

Additional observations from a re-analysis of the deposited data

How the results depend on the processing

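The 4 comparisons of isolation called 0 of 10 receptors in each of 23 alternatives. Females against males under isolation called 1 receptor, Dop1R1, with library totals alone (-0.73, adjusted p = 0.00659), with no filter on low counts (-0.55, adjusted p = 0.0184) and with DESeq2 (-0.53, adjusted p = 0.0481). Of all features these called 3.23%, 3.95% and 6.77%, against 4.24% under the original settings. Leaving out 1 library gave 0 to 1 under isolation and 0 to 1 under group housing, in both cases 1 without group-housed female replicate 2. Of all features 6.04% and 4.61% were called without that library. The average of both housings called 0 with batch 2 alone, with isolated females as replicate 0 alone and with neuron marker scaling, and 0 to 1 with 1 library left out. Over the 12 fits with 1 library left out, Dop1R1 kept its sign and was called in 6, at log2 fold changes from -0.59 to -0.41 and adjusted p from 0.000856 to 0.0833. Those fits called 579 to 1143 of all features, against 801 with every library. The cause of these changes was not tested. Reversals were judged for the 161 alternative values whose 95% interval excluded 0 under the original settings, and 1 turned round, Dop1R2 between females and males under group housing, at 0.011 with neuron marker scaling. Among all 1610 values, most of them near 0, 118 changed sign, of which 20 did so with neuron marker scaling, 15 with library totals alone and 61 among the 840 values with 1 library left out.

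The counts over all features moved more. Isolation called 356 features in females, 28 to 535 over the alternatives, and 8 in males, 0 to 254. Females against males called 434 features under isolation, 62 to 732, and 279 under group housing, 112 to 1019, and 801 on average, 253 to 1409. The difference between the sexes in the isolation response called 45, 7 to 168, and isolation averaged over the sexes 225, 26 to 428. The alternatives also differ in what they test: 18540 features without a filter, 8900 at a minimum count of 30, 10019 with batch 2 alone, and 12005 with isolated females as 1 library, which is assumed to vary like the others. In females, the median over all features moved to -0.23 with library totals alone and to -0.25 with neuron marker scaling.

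With the replicate number as a block in place of batch, 0 receptors were called in the 6 comparisons of housing or of sex within a housing, and 1 (Dop1R1, -0.49, adjusted p = 0.00876) on average of both housings. The block called 395 features in females under isolation, 9 in males, 519 and 324 between females and males under isolation and under group housing, 929 on average of both housings, 69 for the difference between the sexes in the isolation response and 266 for isolation averaged over the sexes. Same-numbered libraries correlated at -0.184 to 0.505, at 0.229 to 0.505 for number 0, which is batch 1. Within batch 2 the median was 0.101 for the same number and 0.0677 for crossed numbers. In all, 8 of 12 libraries correlated best with their own number, a count that includes batch 1, where number and batch are the same. These correlations do not decide whether same-numbered libraries of batch 2 were paired. Depth limits the isolated females most, where 84 reads of 5-HT2B were the fewest for any receptor.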
